A study of Mus musculus with 12 samples.

Results

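The 7 genes of the MHC class II pathway described here (Cd74, H2-Aa, H2-Ab1, H2-Eb1, H2-DMa, H2-DMb1 and Ciita) were taken by symbol from the 31053 genes listed for each library, and each symbol matched 1 entry. They were measured in 12 single-cell libraries, each from the whole brain of 1 male C57BL/6J mouse at postnatal day 90, sorted for live cells positive for the surface proteins CD45 and CD11b. The study asked how the way a brain is taken apart alters what is read from its myeloid cells. Microglia, the macrophages that reside in the brain itself, made up most of the cells. Brains were broken up on ice with a Dounce homogenizer (DNC) or by enzymatic digestion at 37 °C (ENZ). Each method was run without inhibitors (NONE) or with the transcription inhibitors actinomycin D and triptolide and the translation inhibitor anisomycin (INHIB). This gave DNC-NONE replicates 1 to 3, DNC-INHIB replicates 4 to 6, ENZ-NONE replicates 4 to 6 and ENZ-INHIB replicates 1 to 3. All mice were perfused, with inhibitors in the solution for the INHIB groups, and the liberal sort gate took in other CD45+/CD11b+ cells beside microglia. Meninges were removed as far as possible, so border macrophages, which live in the meninges, choroid plexus and perivascular spaces, were only partly sampled. Batch 1 of the labels held DNC-NONE 1 and 2, DNC-INHIB 4, ENZ-NONE 4 and 5 and ENZ-INHIB 1, and batch 2 held the other 6.

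After filtering, 18826 of 28426 cells and 26845321 unique molecular identifiers (UMIs, each standing for 1 captured transcript) were kept, with 853 to 2185 cells per library. DNC-NONE 2 stood apart, with the fewest cells and the highest share of border macrophage-like cells (4.81% against 1.10% to 1.83% in the other 11 libraries), so main values are also given without it. A total of 503 cell barcodes occurred in more than 1 library, 236 of them among kept cells. Cells were named from marker genes after clustering without class II genes. The microglia-like class (17526 cells) held all 10 microglia markers in at least 10% of its cells. It included a cluster of 1065 cells led by Fos, Adamts1 and Dusp1, of which 70.4% came from ENZ-NONE 6. The border macrophage-like class (308 cells) did so for all 10 of its markers, and also for 9 of 10 microglia markers. The other classes used here were monocyte-like (112 cells), Cd209a-positive (59 cells, with UMIs of the dendritic cell lectin Cd209a in each), disease-associated-like (430 cells, led by Lpl, Ccl4 and Cst7) and interferon-responsive-like (336 cells). Of 7 markers listed for the disease-associated-like class 6 were found, and 3 of these were in at least 10% of its cells (highest 20.2%). All 10 microglia markers reached 10% in it. The study named a chemokine class of microglia by Ccl3 and Ccl4, and Ccl4 is among the leading genes of this class. All names were rebuilt here, so a difference from the study's own classes may come from them.

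MHC class II molecules present peptides from engulfed proteins to CD4 T cells, and they are made mainly by dendritic cells, B cells and macrophages. An alpha and a beta chain assemble on the invariant chain, which guides them to the endosome and blocks the groove until the DM molecule exchanges its last fragment for peptide. Transcription of the other members is governed in large part, though not wholly, by the coactivator Ciita. It docks on factors bound at the X and Y boxes of class II promoters. Resting microglia are known for low class II expression, whereas part of the border macrophages carry it.

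The chain genes H2-Aa (alpha chain of I-A), H2-Ab1 (beta chain of I-A) and H2-Eb1 (beta chain of I-E) lie on chromosome 17 with H2-DMa and H2-DMb1, the 2 subunits of DM. In the GRCm38 annotation H2-Ab1 spans 34257689 to 34269419 on the plus strand, H2-Aa 34282744 to 34287823 on the minus strand and H2-Eb1 34305867 to 34316674 on the plus strand. H2-DMa spans 34119541 to 34139101 and H2-DMb1 34153072 to 34160230, both on the plus strand. Ciita lies on chromosome 16 from 10480059 to 10528418, plus strand. Several members overlap other genes: H2-Eb1 an antisense transcript (Gm20513), H2-DMa Brd2 and 3 antisense or pseudogene entries, Ciita Dexi, and Cd74 the microRNA gene Mir5107. How antisense reads were counted is not given in the sources used here, so these counts could include reads of such neighbours. Of the 90-base stretches of H2-DMb1 transcripts, 13.2% also occur in H2-DMb2, so that part of the H2-DMb1 signal may have gone uncounted.

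Because Ciita acts through these boxes, the 120 bases before the start of 3 members are shown, as RefSeq gives them for GRCm38.p6. The letters of an X box and of a Y box are in capitals. The Y box was searched as GATTGG, and the X box as the long run of capitals in H2-Eb1 with any base allowed at the fourth and the eighth letter. Both strands were searched, and the letters were chosen after the windows had been looked at. The H2-DMb1 window is counted from a RefSeq start that lies inside the span given above, so nearly all of it falls within the annotated gene. The windows are chr17:34287824-34287943 (minus strand) for H2-Aa, chr17:34305747-34305866 (plus strand) for H2-Eb1 and chr17:34153071-34153190 (plus strand) for H2-DMb1.
H2-Aa: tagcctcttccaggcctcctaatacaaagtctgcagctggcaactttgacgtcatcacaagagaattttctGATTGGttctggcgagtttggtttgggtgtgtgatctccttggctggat
H2-Eb1: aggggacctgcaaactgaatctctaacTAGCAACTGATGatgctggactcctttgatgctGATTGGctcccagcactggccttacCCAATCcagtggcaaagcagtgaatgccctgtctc
H2-DMb1: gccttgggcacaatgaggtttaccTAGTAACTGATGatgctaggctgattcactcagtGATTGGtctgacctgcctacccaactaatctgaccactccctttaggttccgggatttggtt
The X box stood 93 bases before the start in H2-Eb1 and 96 in H2-DMb1, and the Y box 49 bases before it in H2-Aa, 60 in H2-Eb1 (with a reverse copy at 35) and 62 in H2-DMb1. Among 32851 promoter windows of this length, 9.67% held the Y box letters, 0.0183% the X box letters and 0.00609% both, which are the windows of H2-Eb1 and H2-DMb1. Of the 7 members, 4 had an entry. H2-DMa had 2 entries, with neither set of letters, and Cd74, H2-Ab1 and Ciita had none. The X box letters were written from H2-Eb1, and the bases left free let H2-DMb1 match, so both matches were set by that choice. A window without these letters, such as that of H2-Aa, is not shown to lack an X box. These matches describe the letters of the windows and were not tested as binding sites.

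Most class II transcripts came from a few cells. Cd74, the invariant chain, lies on chromosome 18. The 308 border macrophage-like cells, 1.64% of the kept cells, held 59.5% of the 45475 Cd74 UMIs, and the 59 Cd209a-positive cells, 0.313% of the cells, held 29.4%. Microglia-like cells, 93.1% of the cells, held 3.86%. H2-Aa, H2-Ab1 and H2-Eb1 were split in the same way, with 58.4% to 64.0% of their UMIs in border macrophage-like and 29.6% to 32.3% in Cd209a-positive cells. The DM genes stood apart from the chains: 84.8% of the 10027 H2-DMa UMIs and 81.6% of the 7289 H2-DMb1 UMIs lay in microglia-like cells. Ciita was scarce, at 76 UMIs in all, of which 38 lay in Cd209a-positive and 27 in border macrophage-like cells.

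**Figure D1:**
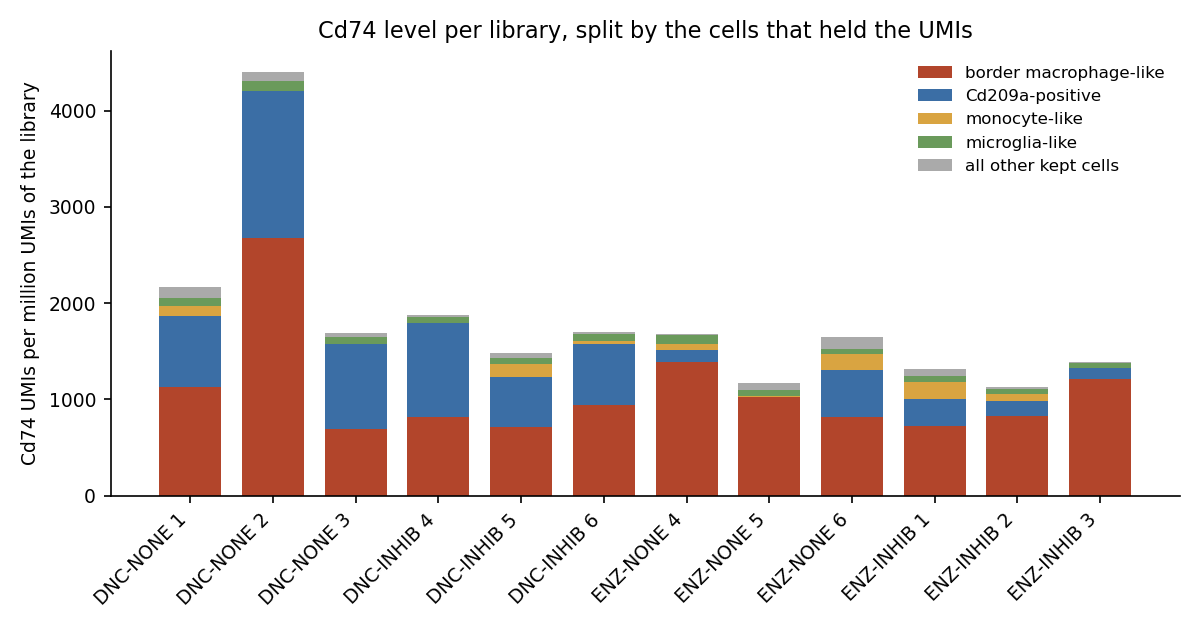
Cd74 level in CPM, as UMIs of the gene per 1e+06 UMIs of each library (vertical axis) for the 12 libraries (horizontal axis), stacked by the cells that held them. Border macrophage-like cells held from 40.7% to 87.2% of the Cd74 UMIs of a library and microglia-like cells from 2.23% to 5.14%, and DNC-NONE 2 stands above the other libraries at 4402 CPM.

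To compare shares of positive cells across cells of unequal depth, every cell was thinned at random to 1000 UMIs. In microglia-like cells 5.47% kept a Cd74 UMI (95% exact Clopper-Pearson interval 5.14% to 5.82%, 959 of 17526 cells), and 7.09% did without thinning. The share was 79.2% (74.3% to 83.6%) in border macrophage-like cells, 46.4% (37.0% to 56.1%) in monocyte-like cells and 100% (59 of 59, at least 93.9%) in Cd209a-positive cells. Over all libraries the 4 classes lay in the order microglia-like, monocyte-like, border macrophage-like and Cd209a-positive for Cd74, and their intervals did not overlap. Intervals cover counting error alone, and cells of 1 library share their source, so the order is a description without a test. Levels, as Cd74 counts per 1e+06 UMIs of the class (CPM), were 71.3 in microglia-like, 8799 in monocyte-like, 51850 in border macrophage-like and 88253 in Cd209a-positive cells. Within libraries the level was higher in border macrophage-like than in monocyte-like cells in 12 of 12, higher in monocyte-like than in microglia-like cells in 11 of 12 (not in DNC-NONE 2, where 4 monocyte-like cells held 0 Cd74 UMIs), and higher in Cd209a-positive than in border macrophage-like cells in 10 of the 11 libraries that held Cd209a-positive cells.

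The 3 chain genes followed Cd74. H2-Aa was kept in 0.696% of microglia-like, 18.8% of monocyte-like, 68.5% of border macrophage-like and 98.3% of Cd209a-positive cells. H2-Ab1 shares were 1.85%, 21.4%, 70.8% and 100%, and H2-Eb1 shares 0.394%, 13.4%, 64.3% and 96.6%, in the same order of classes. For each chain the intervals of all 4 classes were apart. The border macrophage-like level exceeded the microglia-like level 727-fold for Cd74, 1410-fold for H2-Aa, 624-fold for H2-Ab1 and 1342-fold for H2-Eb1, in CPM over all libraries.

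The DM genes, which load peptide onto the assembled chains, were widespread. H2-DMa was kept in 28.1% (27.5% to 28.8%) of microglia-like cells, 24.1% (16.5% to 33.1%) of monocyte-like cells, 52.9% (47.2% to 58.6%) of border macrophage-like cells and 84.7% (73.0% to 92.8%) of Cd209a-positive cells. For H2-DMb1 the shares were 20.8%, 23.2%, 52.6% and 83.1%. Microglia-like and monocyte-like cells overlapped in their intervals for both genes. Border macrophage-like cells exceeded microglia-like cells only 3.22-fold in H2-DMa CPM and 4.83-fold in H2-DMb1 CPM. Ciita, the coactivator, was kept in 22.0% of Cd209a-positive, 4.87% of border macrophage-like and 2.68% of monocyte-like cells, the last 2 with overlapping intervals, and 2 UMIs were found among 17526 microglia-like cells (0.0114%, 0.00138% to 0.0412%).

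**Figure D2:**
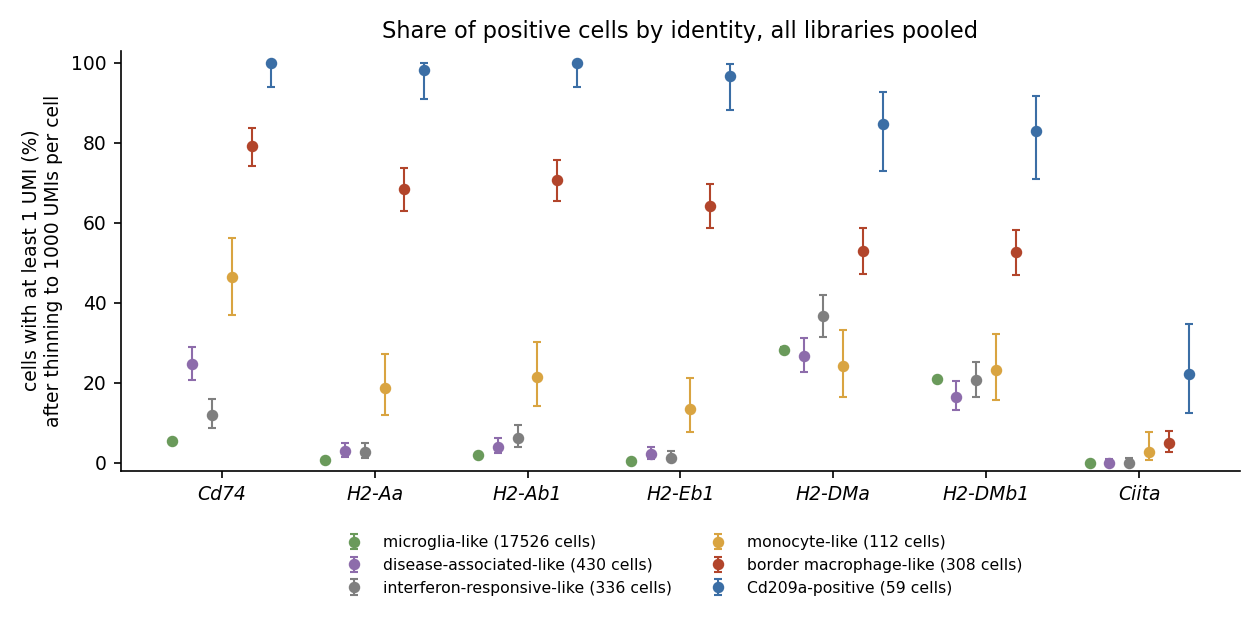
Percentage of cells with at least 1 UMI after thinning to 1000 UMIs per cell (vertical axis), for each of the 7 genes (horizontal axis) and 6 classes of cells, pooled over 12 libraries. Bars are 95% Clopper-Pearson intervals. Cd74 and the chains climb from microglia-like to Cd209a-positive cells, while H2-DMa and H2-DMb1 are already at 28.1% and 20.8% in microglia-like cells.

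Free RNA in droplets can place abundant transcripts into cells that do not express them, and classes expected to lack class II were small. Natural killer-marker cells (9, median depth 1207 UMIs) and neutrophil-marker cells (12, median depth 2143 UMIs) held 0 Cd74 UMIs, which allows shares of up to 33.3% and 25% (3 counts over the number of cells, a limit on cells with a UMI, not on cells expressing the gene), whereas microglia-like cells had a median depth of 1329 UMIs. The microglia-like Cd74 share of 5.47% is therefore not shown to lie above background. The microglia-like Cd74 level in CPM was 0.138% of the border macrophage-like level, and this ratio was 0.0709% for H2-Aa, 0.0708% for the border macrophage chemokine Pf4 and 0.725% for their scavenger receptor Mrc1. Over the 12 libraries Cd74 UMIs per H2-Aa UMI ran from 7.0 to 21.5 in microglia-like cells and from 4.49 to 7.25 in border macrophage-like cells, so the ranges overlapped. H2-Ab1 UMIs per H2-Aa UMI ran from 1.67 to 8.25 against 1.13 to 1.46. These are ratios of counts at transcript 3′ ends, on few H2-Aa UMIs in microglia-like cells (169 in all). The part of free RNA in the microglia-like share was not tested.

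Among microglia-like subsets, Cd74 was most frequent in the disease-associated-like class. It was kept in 24.7% (20.6% to 29.0%) of these cells, from 17.9% to 37.9% per library, and in each library the share exceeded that of the microglia-like class, which ran from 3.79% to 8.66%. Interferon-responsive-like cells kept it in 11.9% (8.64% to 15.9%). H2-Aa was kept in 2.79% and 2.68% of the 2 subsets, H2-Ab1 in 3.95% and 6.25% and H2-Eb1 in 2.09% and 1.19%, each above the microglia-like share. For H2-Eb1 the interferon-responsive-like interval (0.325% to 3.02%) overlapped the microglia-like one (0.306% to 0.498%). Ciita was kept in 0 of 430 and 0 of 336 cells, which allows up to 0.698% and 0.893%. Cd74 UMIs per H2-Aa UMI were 19.7 in disease-associated-like and 10.4 in microglia-like cells, against 5.35 in border macrophage-like and 4.99 in Cd209a-positive cells. In interferon-responsive-like cells the ratio was 8.82, and 15.3 without DNC-NONE 1, which held 38 of their 49 H2-Aa UMIs. H2-DMa was kept in 26.7% of disease-associated-like and 36.6% of interferon-responsive-like cells, against 28.1% of microglia-like cells. For H2-DMb1 the shares were 16.5% and 20.5%, against 20.8%.

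A small number of microglia-like cells carried class II transcripts in quantity. Before thinning, the UMIs of Cd74, H2-Aa, H2-Ab1 and H2-Eb1 summed to 0 in 15679 of the 17526 cells, to 1 in 1546, to 2 to 4 in 268 and to 5 or more in 33. The 33 cells came from 11 libraries, at most 7 from one, and kept the microglia genes P2ry12 in 97.0% and Tmem119 in 90.9%. None of them kept a UMI of Mrc1, Pf4, Ms4a7, Cd209a or Ccr2, which the other microglia-like cells kept in 0.0857% to 0.577%. Of the 10 border macrophage markers 9 were at 0 in them, and Stab1 was kept in 18.2%, against 17.3% of the other microglia-like cells. The other microglia-like cells kept each of these 9 in at most 0.577%. At shares this low 33 cells would mostly hold 0, so the zeros carry little information. They kept the lipid carrier Apoe in 51.5% and the lysozyme Lyz2 in 54.5%, against 22.9% and 28.6% of the other microglia-like cells, with median depths of 1682 and 1329 UMIs before thinning. The cells were chosen for their class II UMIs, and no test was made.

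Border macrophage-like cells were of unlike class II content. Thinned to 1000 UMIs, 88 of 308 cells (28.6%) held fewer than 5 UMIs of the 4 genes, 17 held 5 to 19 and 203 (65.9%) held 20 or more. Both kinds of cell were found in all 12 libraries, with median depths of 1426 and 1585 UMIs before thinning. Of the 10 border macrophage markers, 9 were kept more often by the class II-low cells and 1, Clec12a, less often (5.68% against 22.2%). Pf4 was kept in 85.2% of class II-low against 42.4% of class II-high cells, Mrc1 in 71.6% against 34.0%, the coagulation factor gene F13a1 in 67.0% against 26.1% and the hyaluronan receptor Lyve1 in 27.3% against 1.48%. The class II-high cells kept Ccr2, a chemokine receptor, in 42.9%, against 0% of the class II-low cells. Ccr2 is 1 of 11 listed monocyte markers, and the others were not split by class II content. Before thinning, 2 of the 11 were in at least 10% of all border macrophage-like cells, and Chil3, Vcan and Treml4 were in none. H2-DMb1 was kept in 73.4% and 7.95%, and H2-DMa in 69.5% and 19.3%, of class II-high and class II-low cells. Monocyte-like cells held fewer than 5 UMIs in 70.5% and 20 or more in 16.1%, and all 59 Cd209a-positive cells held 20 or more. The limits of 5 and 20 UMIs were set after the values were seen.

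**Figure D3:**
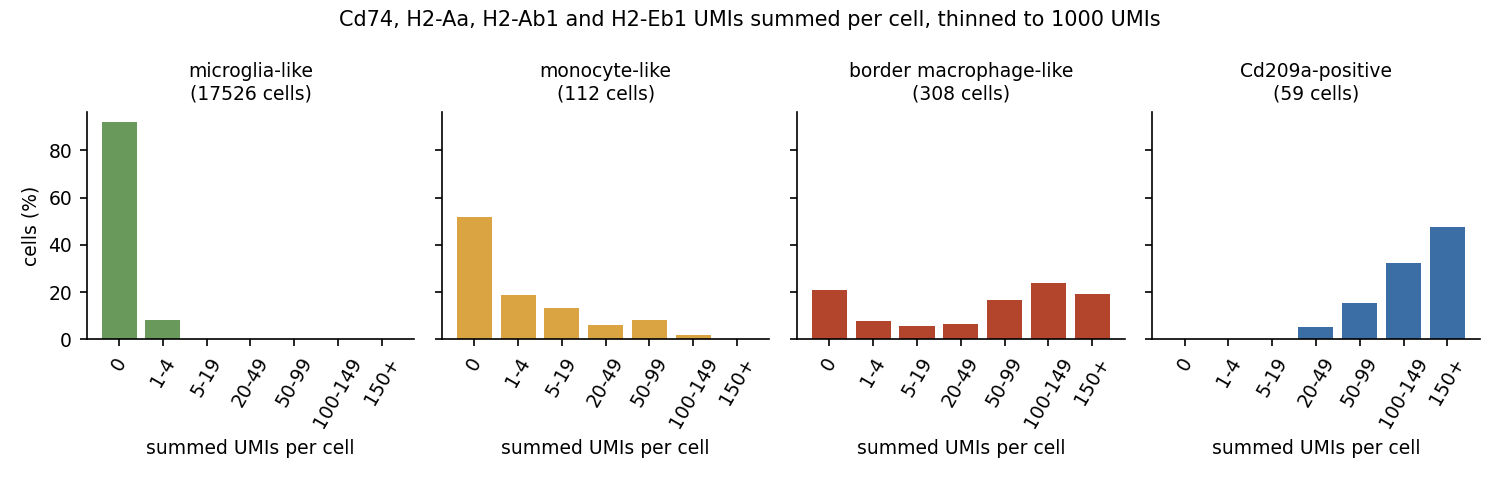
Percentage of cells (vertical axis) by the summed UMIs of Cd74, H2-Aa, H2-Ab1 and H2-Eb1 per cell after thinning to 1000 UMIs (horizontal axis, unequal bins), for 4 classes of cells. Border macrophage-like cells gather at 0 UMIs (20.8%) and again at 20 UMIs or more (65.9%), while no Cd209a-positive cell lies under 20 UMIs.

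To ask whether the preparation altered class II transcripts, all kept UMIs of a library were first summed. The Cd74 level was 2173, 4402 and 1693 CPM in DNC-NONE 1, 2 and 3 and 1873, 1486 and 1704 CPM in DNC-INHIB 4, 5 and 6. It was 1679, 1173 and 1652 CPM in ENZ-NONE 4, 5 and 6 and 1313, 1131 and 1392 CPM in ENZ-INHIB 1, 2 and 3. The DNC libraries reached higher than the ENZ libraries, and the methods overlapped between 1486 and 1679 CPM. H2-Aa levels were 369, 669 and 325 CPM in the DNC-NONE libraries, 295, 303 and 329 CPM in DNC-INHIB, 271, 186 and 343 CPM in ENZ-NONE and 201, 247 and 298 in ENZ-INHIB. H2-DMa levels were much alike, from 353 to 407 CPM in DNC and from 313 to 406 CPM in ENZ libraries, and H2-DMb1 ran from 261 to 357 and from 239 to 273 CPM. Ciita had 1 to 15 UMIs per library and did not pass the filter on low counts.

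None of the 6 members that passed the filter was called between preparations (edgeR quasi-likelihood test, Benjamini-Hochberg adjusted p under 0.05 over 9882 genes and absolute log2 fold change over 0.58). Between ENZ and DNC, where 0.891% of all genes were called, Cd74 differed by −0.61 (SE 0.17, adjusted p = 0.0819), H2-Ab1 by −0.53 (SE 0.17, adjusted p = 0.153), H2-Aa by −0.50 (SE 0.16, adjusted p = 0.170) and H2-Eb1 by −0.35 (SE 0.18, adjusted p = 0.448) on the log2 scale. H2-DMa differed by 0.01 (SE 0.08) and H2-DMb1 by −0.15 (SE 0.07). Of the 6, 4 had an unadjusted p under 0.05 (all lower in ENZ), against 12.9% of all genes, and DESeq2 called 0 with 3 such p. The median difference over the members was −0.42 and over all genes 0.00. Without DNC-NONE 2 the Cd74 difference was −0.36 (adjusted p = 0.126), that of H2-Aa −0.31 (adjusted p = 0.357) and that of H2-Ab1 −0.31 (adjusted p = 0.309). Without ENZ-NONE 6 Cd74, H2-Aa and H2-Ab1 were called, at −0.66, −0.62 and −0.66. Without DNC-NONE 3 Cd74 was called, at −0.73 (adjusted p = 0.0154). Here and below, the share of all genes called without 1 library is not given, so these calls have no background beside them.

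With inhibitors, 0.223% of all genes were called and none of the members (edgeR). Cd74 differed by −0.49 (SE 0.17, adjusted p = 0.488), H2-Ab1 by −0.40 (SE 0.17) and H2-Aa by −0.34 (SE 0.16), with 2 unadjusted p under 0.05, both lower, against 6.93% of all genes, and 0 calls and 1 such p by DESeq2. Without DNC-NONE 2 Cd74 differed by −0.23 (adjusted p = 0.710). The method by inhibitor interaction, with 0.172% of genes called, gave no member a call, no unadjusted p under 0.05 (3.56% of all genes) and 0 calls by DESeq2. Among pairs of groups the largest Cd74 difference was that of ENZ-INHIB against DNC-NONE, at −1.09 (SE 0.24, adjusted p = 0.0761, 0.101% of genes called). Here 5 members had an unadjusted p under 0.05, all lower, against 10.5% of all genes, and DESeq2 called 0 with 4 such p. With the replicate number as a block Cd74, H2-Aa and H2-Ab1 were called (−0.98, −0.81 and −0.86). Cd74 was called without DNC-NONE 3 (−1.34), and Cd74 and H2-Ab1 without ENZ-NONE 6 (−1.09 and −0.93). Without DNC-NONE 2 the Cd74 difference was −0.59 (adjusted p = 0.210). ENZ-NONE against DNC-NONE (0.617% of genes called) gave Cd74 −0.82 (SE 0.24, adjusted p = 0.192), and these comparisons share the DNC-NONE libraries. Its other members with an unadjusted p under 0.05 brought the count to 4, all lower, against 8.60% of all genes (DESeq2, 0 calls and 3 such p). Here Cd74 was called without DNC-NONE 3 (−1.07) and H2-Ab1 without ENZ-NONE 6 (−1.01), and without DNC-NONE 2 Cd74 differed by −0.32 (adjusted p = 0.663). DNC-INHIB against DNC-NONE, where 0% of genes were called, gave Cd74 −0.70 (SE 0.23, adjusted p = 0.893), with 3 such p by edgeR, against 4.72% of all genes, and 0 calls and 1 such p by DESeq2, and it was −0.20 (adjusted p = 0.999) without DNC-NONE 2. In the remaining 3 pairs (ENZ-INHIB against DNC-INHIB with 0.152%, ENZ-INHIB against ENZ-NONE with 0.385% and ENZ-NONE against DNC-INHIB with 0.799% of genes called) edgeR and DESeq2 called 0 members and gave 0 unadjusted p under 0.05.

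**Figure D4:**
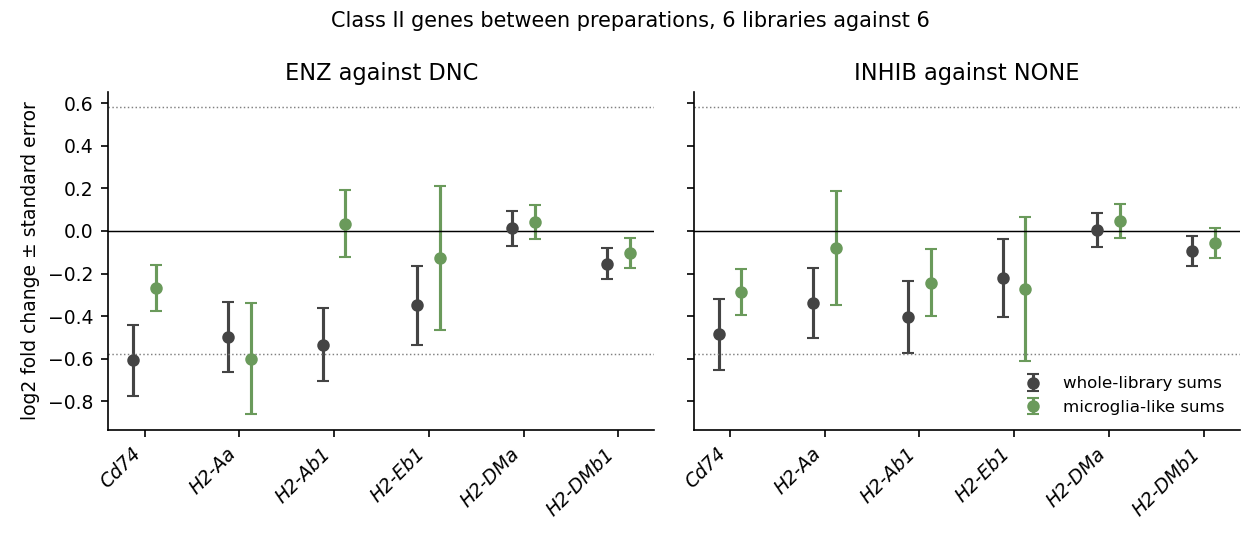
Log2 fold change (vertical axis, bars are standard errors) of 6 class II genes between ENZ and DNC (left) and between INHIB and NONE (right), 6 libraries against 6, from whole-library sums and from microglia-like sums. Dotted lines mark the fold-change limit of 0.58, and no gene passed both criteria of a call.

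The whole-library difference was split by the cells that held the UMIs. Mean Cd74 levels were 1390 CPM in ENZ and 2222 CPM in DNC libraries. Cd209a-positive cells contributed 196 and 879 CPM of these, a difference of −683 or 82.1% of the total difference, border macrophage-like cells 998 and 1164 CPM (19.9%) and microglia-like cells 61.1 and 73.0 CPM (1.42%). Without DNC-NONE 2 the Cd209a-positive part differed by −554 CPM, while the border macrophage-like part was higher in ENZ by 138 CPM. In batch 1 the Cd209a-positive part differed by −938 and in batch 2 by −428 CPM, and the border macrophage-like part by −501 and 170 CPM. For H2-Aa, Cd209a-positive cells made up 94.6% of the method difference of −124 CPM. Without DNC-NONE 2 that difference was −66.8 CPM, with a Cd209a-positive part of −106 CPM. The inhibitor difference in Cd74 of −645 CPM fell mainly on border macrophage-like cells (−414 CPM) and was −191 CPM without DNC-NONE 2.

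Cd209a-positive cells were themselves fewer after digestion. They made up 0.489%, 0.938% and 0.573% of cells in DNC-NONE 1, 2 and 3 and 0.518%, 0.307% and 0.320% in DNC-INHIB 4, 5 and 6. In the digested brains they made up 0.0637%, 0% and 0.286% in ENZ-NONE 4, 5 and 6 and 0.294%, 0.119% and 0.0630% in ENZ-INHIB 1, 2 and 3. No ENZ library reached the lowest DNC library. The mean difference was −0.387 percentage points (0.138% ± 0.124 against 0.524% ± 0.229, SD, n = 6 each), with an exact two-sided permutation p = 0.00216, the smallest that the splits can give, and an adjusted p = 0.0260 over 12 tests of 6 classes and 2 factors. Within batches the difference was −0.529 and −0.244 points (exact permutation p = 0.005, adjusted p = 0.0600), the smallest p that splits within batches allow, so that this test could not pass. The test was added after the values were seen, rests on 0 to 9 cells per library and lost its call with cells taken by at least 2 Cd209a UMIs in place of the cluster (−0.309 points, adjusted p = 0.221). Without any 1 library the difference ran from −0.430 to −0.304 points, with an adjusted p = 0.0519, again the smallest that such splits allow. The share of border macrophage-like cells differed by −0.636 points (adjusted p = 0.579), and by −0.0852 points without DNC-NONE 2 (adjusted p = 0.883). Brains were taken apart after removal, so these are shares among recovered and kept cells. The step at which Cd209a-positive cells became fewer was not tested, nor was a difference between the mice.

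Within microglia-like cells, which make up most of every library, sums per library were tested again over 9641 genes. The Cd74 level was 84.7, 115 and 79.7 CPM in DNC-NONE 1, 2 and 3 and 66.1, 69.2 and 75.2 CPM in DNC-INHIB 4, 5 and 6. It was 91.1, 60.8 and 56.3 CPM in ENZ-NONE 4, 5 and 6 and 69.9, 58.4 and 57.2 in ENZ-INHIB 1, 2 and 3. Methods and inhibitor groups overlapped. Between methods (0.861% of genes called) no member was called, with Cd74 at −0.27 (SE 0.11, adjusted p = 0.288) and H2-Aa at −0.60 (SE 0.26, adjusted p = 0.336) by edgeR. Of the 6 members 2 had an unadjusted p under 0.05, against 12.7% of all genes, and DESeq2 called 0 with 2 such p. H2-DMa differed by 0.04 (SE 0.08) and H2-DMb1 by −0.10 (SE 0.07). With inhibitors (0.239% of genes called) Cd74 differed by −0.29 (SE 0.11, adjusted p = 0.743) and no member was called (edgeR, 1 unadjusted p under 0.05, against 6.06% of all genes, and DESeq2, 0 calls and 1 such p). In the interaction (0.176% of genes called) and in the 6 pairs of groups no member was called by edgeR or DESeq2. By edgeR 0 to 2 members had an unadjusted p under 0.05, against 3.61% to 9.95% of all genes. By DESeq2 0 or 1 had one, and 2 members had no adjusted p in the interaction. All-gene shares of unadjusted p are those of edgeR throughout. Of all genes, 0.612% were called in ENZ-NONE against DNC-NONE, 0.228% in ENZ-INHIB against DNC-INHIB, 0.0104% in DNC-INHIB against DNC-NONE, 0.425% in ENZ-INHIB against ENZ-NONE, 0.934% in ENZ-NONE against DNC-INHIB and 0.145% in ENZ-INHIB against DNC-NONE.

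The share of positive microglia-like cells gave the same picture per library. After thinning, Cd74 was kept in 7.45%, 8.66% and 5.88% of these cells in DNC-NONE 1, 2 and 3 and in 5.76%, 5.01% and 6.55% for DNC-INHIB 4, 5 and 6. In ENZ libraries it was kept in 5.87%, 4.04% and 4.31% for ENZ-NONE 4, 5 and 6 and in 4.01%, 4.95% and 3.79% for ENZ-INHIB 1, 2 and 3. The methods overlapped between 5.01% and 5.87%. The share was 4.49% ± 0.784 in ENZ and 6.55% ± 1.32 in DNC libraries (SD, n = 6 each), a difference of −2.06 points with an exact permutation p = 0.00866 and an adjusted p = 0.0707 over 14 tests. H2-Aa (−0.468 points) and H2-DMb1 (−2.12 points) had the same adjusted p of 0.0707, with exact permutation p of 0.0130 and 0.0152. None of the 14 tests of 7 genes and 2 factors passed an adjusted p of 0.05. Within batches the Cd74 difference was −2.65 and −1.46 points (exact permutation p = 0.015, adjusted p = 0.105). Precision was limited by depth, since microglia-like cells held 86 to 218 Cd74 UMIs per library.

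**Figure D5:**
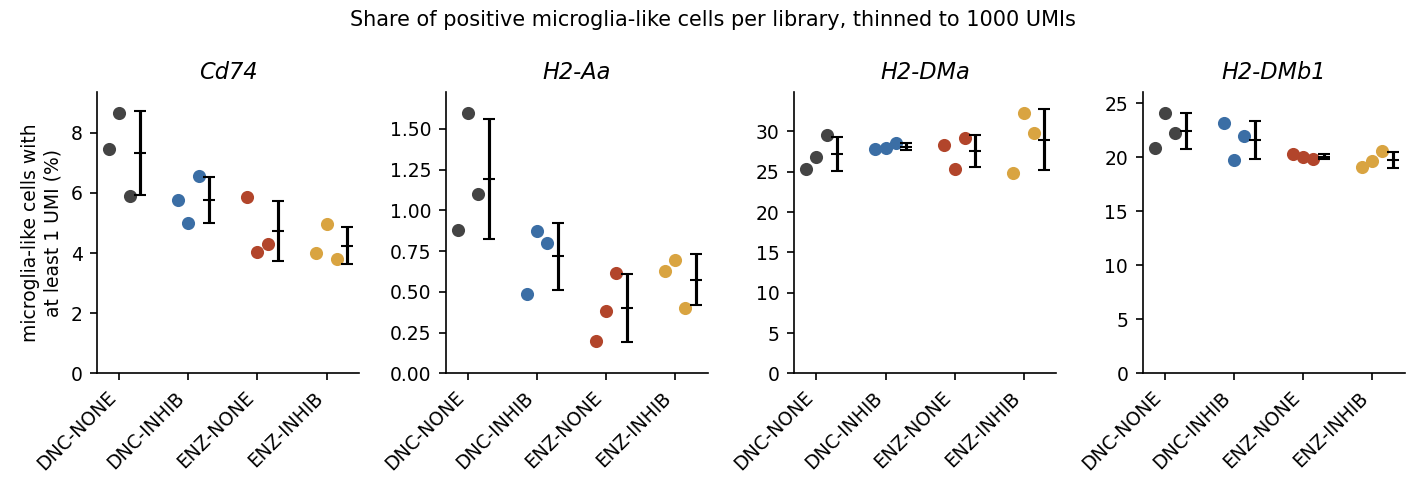
Percentage of microglia-like cells with at least 1 UMI of Cd74, H2-Aa, H2-DMa or H2-DMb1 after thinning to 1000 UMIs (vertical axes from 0, scaled per gene), by preparation. Points are the 3 libraries of a group and bars the mean ± SD. For Cd74 the ENZ libraries sit between 3.79% and 5.87% and the DNC libraries between 5.01% and 8.66%.

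In border macrophage-like cells the level ran the other way. Cd74 was at 56876, 44681 and 40090 CPM in DNC-NONE 1, 2 and 3 and at 57664, 31380 and 46332 CPM in DNC-INHIB 4, 5 and 6. After digestion it was at 86538, 76436 and 37492 in ENZ-NONE 4, 5 and 6 and at 55936, 53649 and 74989 in ENZ-INHIB 1, 2 and 3. The methods overlapped, with ENZ-NONE 6 among the lowest. The mean was 64173 CPM in ENZ and 46171 CPM in DNC libraries, a difference of 18003 CPM (exact permutation p = 0.0693, adjusted p = 0.139 over 2 tests), and 19896 and 16109 CPM within batches (exact permutation p = 0.045, adjusted p = 0.0900). Between INHIB and NONE the difference was −3694 CPM (exact permutation p = 0.725). Each library held 13 to 41 of these cells, so the mixture of class II-low and class II-high cells weighs on each value. The share of Cd74-positive cells in the class was 73.5% ± 2.09 in DNC-NONE, 78.0% ± 6.92 in DNC-INHIB, 82.9% ± 13.3 in ENZ-NONE and 88.2% ± 11.5 in ENZ-INHIB (SD, n = 3 each).

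Other genes of the pathway were taken from a list of 33 (assembly, transcription, interferon-gamma signalling, antigen processing, turnover and co-stimulation). H2-Eb2 had 0 UMIs, and 30 of the 33 were tested. None was called in any of the 9 comparisons in either population (edgeR and DESeq2), with 0 to 7 unadjusted p under 0.05 by edgeR (7 of 30 in microglia-like sums of ENZ-NONE against DNC-INHIB, where 9.95% of all genes had one). Between methods 6 of 30 had an unadjusted p under 0.05 in whole-library sums and 6 in microglia-like sums, 5 higher and 1 lower in each, against 12.9% and 12.7% of all genes, and DESeq2 called 0 with 5 and 4 such p. The median difference between methods was 0.02 in whole-library and 0.03 in microglia-like sums, against 0.00 over all genes in both. The smallest adjusted p between methods belonged to the lysosomal protease gene Ctsd in whole-library sums (0.18, SE 0.06, adjusted p = 0.148) and to Cd83, which slows the removal of class II from the surface, in microglia-like sums (0.41, SE 0.14, adjusted p = 0.172).

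By class of cell the list did not move as one. H2-DMb2, a second DM beta gene, was at 594 CPM in Cd209a-positive, 23.0 in border macrophage-like and 12.3 in microglia-like cells. H2-Oa, a subunit of the DM inhibitor DO, was at 304, 11.5 and 53.0 CPM in the same classes, so that border macrophage-like cells lay below microglia-like cells. The RFX subunit genes Rfx5, Rfxap and Rfxank, whose products bind the X box, were at 14.3, 39.9 and 18.6 CPM in microglia-like and at 3.83, 32.6 and 15.3 CPM in border macrophage-like cells. Ctss, the protease that trims the invariant chain, was at 9783 CPM in microglia-like, 5966 in border macrophage-like and 2759 in Cd209a-positive cells. Over these classes the order was opposite to that of Cd74, but not over the others. Monocyte-like cells, lower in Cd74 than border macrophage-like cells, were also lower in Ctss, at 3275.5 CPM. Disease-associated-like and interferon-responsive-like cells, at 10833 and 11757 CPM, exceeded microglia-like cells in both genes. Cd83 was highest in disease-associated-like cells, at 1246 CPM against 173 in microglia-like cells. These levels are a description without a test.

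Across the 12 clusters the genes most like Cd74, by Pearson correlation of log2(CPM + 10) among the 9882 tested genes, were H2-Aa (r = 0.987), H2-Eb1 (r = 0.979) and H2-Ab1 (r = 0.974) among the members. Among other genes they were the ribosomal protein genes Rpl36 (r = 0.978), Rpl37a, Rps29, Rps24 and Rps12 (lowest r = 0.965). H2-DMa and H2-DMb1 followed at 0.863 and 0.860. Across the 12 libraries H2-Ab1 (r = 0.964), H2-Aa (r = 0.922) and H2-DMb1 (r = 0.916) were most like it among the members, and H2-DMa was not, at 0.365. The other genes most like it were C4b (r = 0.913), Gm16062, Dok2, Dab2 and Mvp (lowest r = 0.894), of which C4b, Gm16062 and Dok2 had few UMIs (101 to 155). Points of the first kind share libraries and those of the second share depth and cell composition, with DNC-NONE 2 highest for Cd74, and no p is given.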

How the data were processed

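The deposited files hold raw UMI counts per gene and cell, 1 matrix per library, made with the 10x Genomics 3′ kit. Per the labels the authors used bcl2fastq (version not given in the labels), Cell Ranger 3.0.0 and the mm10/GRCm38 genome. Kept cells had 500 or more genes, 1000 or more UMIs and no more than 10% of UMIs from mitochondrial genes, and 4 cells with at least 5 UMIs over at least 3 marker genes of red blood cells or of non-immune brain cells were removed as doublets. Kept cells were clustered with scanpy 1.11.5 and leidenalg 0.10.2 on 2000 variable genes, 30 principal components, 20 neighbours and resolution 1. Mitochondrial, ribosomal protein, histone and class II genes, Malat1 and Gm42418 were left out of the variable genes. So were lists of genes that respond to dissociation, among them Fos, Jun and Dusp1. Clusters were named from marker lists. The splits that gave the Cd209a-positive, natural killer-marker and neutrophil-marker cells were chosen after the data were seen. The 7 members and all lists were chosen with earlier results of these data known. Each library is 1 mouse, so p-values measure the spread between mice and preparations together.

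Counts were summed per library, over all kept cells and over microglia-like cells, and fitted with edgeR 4.0.16 (quasi-likelihood, TMM scaling, filterByExpr) over all genes, with all 4 groups in 1 model. DESeq2 1.42.0 was an alternative. Shares and class levels were compared with exact permutation tests over 6 against 6 libraries (scipy 1.17.1), whose smallest p is 0.00216. The edgeR steps were tested on simulated data: of genes changed by a log2 of 1 between methods in whole-library sums, 91.9% were called. These genes were drawn at random, and the members differed by less (Cd74 by −0.61), so this share does not give the power for the members. Genes named by rule were the members, pathway genes called in any comparison (none was), the 5 genes most like Cd74 over clusters and over libraries and the 3 leading genes of a cluster. The pathway genes named with values, and Apoe, Lyz2, Ccr2 and the border macrophage genes, were picked once their values were known. Intervals and zero limits cover counting error only.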

Additional observations from a re-analysis of the deposited data

Results flagged for a closer look

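In 8 groups of 6 libraries, DNC-NONE 2 lay far above the others by Dixon's test (critical value 0.625). Its whole-library Cd74 level was 4402 CPM, against 2173 CPM in the next DNC and the next NONE library, in both cases DNC-NONE 1. H2-Ab1 stood at 999 CPM against 486 CPM in both groups, and H2-Eb1 at 341 CPM against 162 CPM in both. H2-Aa stood out among the DNC libraries, at 669 CPM against 369 CPM, and H2-DMb1 among the NONE libraries, at 357 CPM against 287.5 CPM. This library had the highest share of border macrophage-like cells (4.81%) and of Cd209a-positive cells (0.938%), and the part of these shares in its class II levels was not tested.

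The share of microglia-like cells with a Ciita UMI stood out at 0.0693% in DNC-INHIB 4 and at 0.0961% in ENZ-NONE 5, each in 2 groups. Each rests on 1 UMI, and the other 10 libraries were at 0. Together 12 of 60 groups tested stood out, where chance gives about 1 in 20, and the groups share libraries.

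Among the 9600 cells left out by the filters, 641 (6.68%) held Cd74, with 5769 Cd74 UMIs in all. The level in these cells was 836 CPM, against 1694 CPM in kept cells.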

How the results depend on the processing

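Among values that answer a comparison, 860 alternatives kept direction and side of the threshold. With no filter on low counts, whole-library sums gave 1 call among the members between methods, 2 in DNC-INHIB against DNC-NONE and 3 each in ENZ-INHIB and ENZ-NONE against DNC-NONE. Leaving out 1 library at a time gave 0 to 3 calls between methods (3 without ENZ-NONE 6, 1 without DNC-NONE 3). It gave 0 to 2 in ENZ-INHIB against DNC-NONE and 0 to 1 in ENZ-NONE against DNC-NONE. For these fits, and for the pairs with no filter, the share of all genes called is not given. Whether calls rose over all genes alike is therefore not shown. The pairing of libraries by replicate number was not borne out (correlations of same-numbered libraries from −0.081 to 0.155), and with the replicate block Cd74, H2-Aa and H2-Ab1 were called in ENZ-INHIB against DNC-NONE (3 calls, and 61 genes in place of 10), with no other call among the members changed. Of the pathway list, Icam1 was called in microglia-like sums of ENZ-NONE against DNC-INHIB with batch as a covariate (1 call) and without ENZ-NONE 4 (range 0 to 1). Over all genes, whole-library calls between methods were 88, against 235 with no filter and 46 with sums thinned to the smallest library, and microglia-like calls 83, against 156 and 47. With inhibitors they were 22 against 130, and 23 against 70, with no filter.

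The Cd209a-positive share between methods kept its direction under all alternatives run and lost its call with at least 2 Cd209a UMIs (−0.309 points). Splits within batches (−0.387, adjusted p = 0.0600) and without 1 library (−0.430 to −0.304, adjusted p = 0.0519) gave the smallest p they allow and could not pass. At resolution 0.5 no such cluster formed. The Cd74 share of microglia-like cells was 7.09% unthinned. The inhibitor difference in border macrophage-like Cd74 reversed on a log scale (0.20), within batches (1732 CPM) and without DNC-INHIB 5, ENZ-NONE 4 or ENZ-NONE 5 (range −8027 to 2210 CPM). Log2 fold changes near 0 also reversed. With batch as a covariate, H2-DMa with inhibitors became −0.0530 in whole-library and −0.0238 in microglia-like sums. With thinned microglia-like sums it became −0.0151, and H2-Ab1 between methods −0.0356. Leaving out 1 library, H2-DMa in whole-library sums ran from −0.0399 to 0.0675 between methods and from −0.0443 to 0.0599 with inhibitors, and in microglia-like sums from −0.00475 to 0.105 with inhibitors. In microglia-like sums H2-Ab1 ran from −0.0837 to 0.175 and H2-Eb1 from −0.360 to 0.0590 between methods, and H2-Aa from −0.236 to 0.118 with inhibitors. The cause was not tested.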
